A study of Homo sapiens with 27 samples.

Results

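The genes described here are HMOX1 and 8 genes of the NRF2 oxidative stress response, NFE2L2, NQO1, GCLC, GCLM, SLC7A11, TXNRD1, SRXN1 and OSGIN1, as measured by RNA Frac-Seq in U2OS cells depleted of TPR. They were matched by Ensembl gene ID, and all 9 were found among the 34464 genes with values. HMOX1 was selected on its measured level in the total RNA of TPR A cells against control in an earlier analysis of these data, and the other 8 were added for their place in the same pathway. Values of the total fraction are therefore given as a description, with nothing drawn from the counts printed for it, and tests were made on the nuclear and cytoplasmic/ER libraries, which were prepared alongside the total libraries and are not a separate experiment.

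U2OS is a human osteosarcoma line, and TPR is a protein of the nuclear basket, the part of the nuclear pore that faces the nucleoplasm. Cells received a control shRNA or 1 of 2 TPR shRNAs, 'TPR A' and 'TPR D', from lentivirus, for 5 days in the TPR-depleted cells. Cells of each culture were kept whole for total RNA or split with detergent into a nuclear fraction and a cytoplasmic/ER fraction, and poly(A)+ RNA was sequenced. With 3 shRNAs, 3 fractions and 3 replicates there were 27 libraries in 9 groups of 3, and both TPR shRNAs were compared with the same control libraries. The values are FPKM, in which fragment numbers are divided by the length of the transcript and by the size of the library, so that levels of different genes can be set side by side.

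NRF2, the product of NFE2L2, is a transcription factor that KEAP1 marks for degradation in unstressed cells. Oxidants and electrophiles disable KEAP1, and NRF2 then binds antioxidant response elements together with a small MAF protein and switches on genes for glutathione and thioredoxin metabolism, quinone detoxification and iron handling. HMOX1 encodes haem oxygenase 1, which cleaves haem to biliverdin, carbon monoxide and iron, and it is also held down by the haem-binding repressor BACH1.

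The letters of the antioxidant response element are shown because they are the feature that NRF2 targets are known to share. TGACNNNGC was searched on both strands of RefSeq promoter windows (GRCh38.p14, from 250 bases before to 50 after a transcription start). Of the 9 genes, 7 had an entry, with 9 windows between them, and HMOX1 and SLC7A11 had none. Matches lay in 3 of the 9 windows and belonged to 2 genes, GCLM and TXNRD1, while 13.3% of all 35116 windows held a match. In the lines that follow, capitals mark the match, each sequence reads 5′ to 3′ on the strand that carries the match, and positions count from the transcription start to the end of the match that lies upstream in the gene's direction. The TXNRD1 windows belong to alternative starts of the gene, on the plus strand in chr12:104215529-104215828 and chr12:104286782-104287081, and the GCLM window lies on the minus strand in chr1:93909381-93909680.
GCLM, -34, antisense to the gene: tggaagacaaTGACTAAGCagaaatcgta
TXNRD1, first window, -99, sense: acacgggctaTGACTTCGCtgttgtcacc
TXNRD1, first window, -8, antisense: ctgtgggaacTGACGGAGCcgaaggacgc
TXNRD1, second window, -102, antisense: agagtcagaaTGACAAAGCagaaatccac
A match is a run of letters and not a measured binding site, and neither gene passed the test in a comparison of a TPR shRNA with control. Bases outside the windows were not searched, so a window without a match does not show that the gene lacks the element.

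Before the genes, the libraries were checked. TPR mRNA was 25.3 to 28.2 FPKM in control total libraries, 3.44 to 4.70 with TPR A and 3.23 to 6.01 with TPR D, and the groups did not overlap in any fraction. Transcripts of the mitochondrial genome, which mark the cytoplasm, made up 26.5 to 37.9% of FPKM in the cytoplasmic/ER libraries, 15.8 to 24.7% in 8 total libraries and 0.774 to 2.42% in 8 nuclear libraries. The library labelled control nuclear replicate 2 had 21.8% and the one labelled control total replicate 2 had 0.738%, so each looked like the other fraction. In 25 of 27 libraries the expression profile was closest to its own labelled fraction, and these 2 were the exceptions. They were kept under their labels, and the nuclear and N/C results of the genes below were also computed without the control replicate 2 libraries. MALAT1 and NEAT1, long non-coding RNAs of the nucleus, were higher in each nuclear library (16.3 to 83.6 and 21.7 to 69.7 FPKM) than in each cytoplasmic/ER library (2.27 to 16.1 and 4.11 to 17.9 FPKM). The highest nuclear values were those of control replicate 2, and without it the highest were 40.1 and 67.1 FPKM. Total libraries other than control replicate 2 held 71.6 to 207 and 56.8 to 150 FPKM. These RNAs thus set nuclear apart from cytoplasmic/ER libraries but were not enriched in nuclear over total libraries. Of 9 markers of osteoblast-like cells, SPARC, COL1A1, COL5A1, RUNX2, CDH11 and ALPL were above 1 FPKM in each library, COL1A2 stayed at or below 0.744 FPKM, and SP7 and BGLAP were at or below 0.0637 and 0.286 FPKM. The blood cell gene PTPRC reached 1.22 FPKM, the epithelial gene EPCAM 6.87 FPKM and the liver gene ALB 0.0481 FPKM. An FPKM of 1 on 1 kb of transcript stood for an estimated 32.1 to 88.4 reads, and the lowest value of any of the 9 genes in any library, SLC7A11 in a control cytoplasmic/ER library, rested on about 77 reads per kb.

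HMOX1 (ENSG00000100292, chr22:35776354-35790207 on the plus strand in GRCh37, with no overlapping gene in GENCODE 44) was higher in TPR A cells than in control cells in nuclear and cytoplasmic/ER RNA. Its mRNA rose 11.3-fold in the nuclear fraction and 6.71-fold in the cytoplasmic/ER fraction. With TPR D its level was 1.77-fold and 1.71-fold that of control, and neither difference passed the test. Since libraries were made from bulk RNA, more cells that express HMOX1 and more HMOX1 mRNA per cell cannot be told apart.

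In nuclear RNA HMOX1 was 47.3, 28.9 and 58.7 FPKM in the control replicates 1, 2 and 3, and 245, 558 and 855 FPKM in those of TPR A. In the TPR D replicates it was 78.1, 70.2 and 80.1 FPKM. All 3 TPR A libraries lay above all others, and the TPR D libraries formed a narrow group between the control and TPR A libraries without overlap with either. The log2 change was 3.50 ± 0.36 (SE, n = 3 against 3) for TPR A, with an adjusted p of 1.35e-05 (limma, Benjamini-Hochberg adjustment over 14611 genes), and 0.82 ± 0.36 for TPR D, with an adjusted p of 0.491. Without the control replicate 2 libraries these values were 3.22 (adjusted p = 0.000318) and 0.54 (adjusted p = 0.794). The SE rests on 1 spread shared by all 9 groups, so the widely spaced TPR A libraries also enter the test of TPR D. Leaving out TPR A replicate 1 gave TPR D an adjusted p of 0.264 in limma, still not past the threshold. HMOX1 had the 9th highest log2 change of the 14611 genes with TPR A, and the 555th with TPR D.

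In cytoplasmic/ER RNA the control libraries were close together, at 57.7, 58 and 60 FPKM. The TPR A libraries held 240, 518 and 460 FPKM, and the TPR D libraries 83.7, 120 and 96.4 FPKM. Here too the 3 groups did not overlap and stood in the same order as in the nucleus. The log2 change was 2.75 ± 0.36 for TPR A (adjusted p = 0.000621, limma) and 0.78 ± 0.36 for TPR D (adjusted p = 0.504, limma). Leaving out control replicate 2 gave 2.74 and 0.77. The 95% interval for TPR D, which is not adjusted for the number of genes, ran from 1.02-fold to 2.89-fold.

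The difference between the shRNAs was tested directly. HMOX1 was 6.41-fold higher with TPR A than with TPR D in nuclear RNA (log2 difference 2.68 ± 0.36, adjusted p = 0.000959, limma) and 3.92-fold higher in cytoplasmic/ER RNA (1.97 ± 0.36, adjusted p = 0.0117, limma). The cytoplasmic/ER call was lost when TPR A replicate 2 or 3 or TPR D replicate 1 or 3 was left out, with adjusted p-values of 0.0594 to 0.112, while the log2 difference stayed between 1.77 and 1.95. For TPR mRNA itself the difference was not called, with log2 values of TPR A minus TPR D of -0.20 (95% interval -0.95 to 0.55) in the nucleus and -0.05 (-0.80 to 0.70) in the cytoplasmic/ER fraction.

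In total RNA, the fraction on which HMOX1 was selected, it was 27.1, 58.4 and 31.5 FPKM with control shRNA, 177, 251 and 328 FPKM with TPR A and 55.7, 40.1 and 47.5 FPKM with TPR D. The TPR A libraries were above all others, and the TPR D libraries lay within the range of the control libraries but above control replicates 1 and 3. TPR A gave a log2 change of 2.79 and TPR D one of 0.44, or 3.09 and 0.74 without control replicate 2, whose total library was the highest of the control total libraries. Sample descriptions of replicate 1 differ in form from the rest, and within replicate 1 the TPR A change was 2.42 (nuclear) and 2.13 (cytoplasmic/ER), against 4.04 and 3.06 within replicates 2 and 3. The TPR A rise was thus present within each set, and TPR A replicate 1 was the lowest of the 3 TPR A libraries in each fraction.

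**Figure D1:**
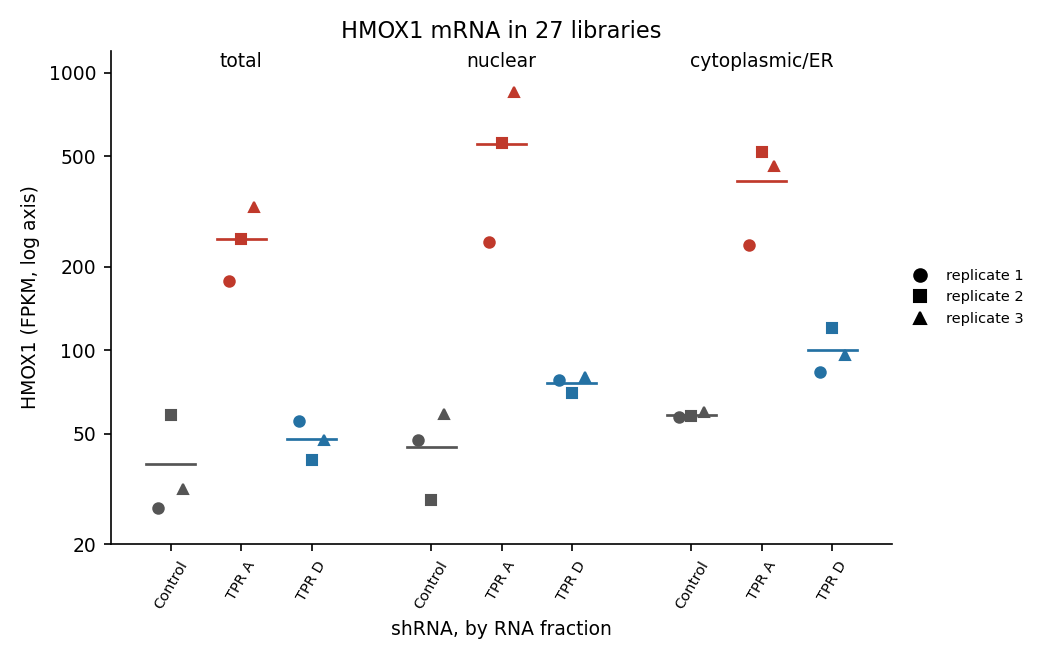
HMOX1 mRNA in FPKM (log axis) for each of the 27 libraries, grouped by RNA fraction and shRNA, with a symbol for each replicate and a line at the group mean. TPR A libraries lie at 177 to 328 FPKM in total, 245 to 855 in nuclear and 240 to 518 in cytoplasmic/ER RNA, above every control and TPR D library.

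The rise of HMOX1 was seen on both sides of the nuclear envelope, and the split between them did not pass the test. The N/C value, log2 of the nuclear over the cytoplasmic/ER level, was -0.26, -0.95 and 0.00 in control replicates 1, 2 and 3, and 0.04, 0.12 and 0.90 in TPR A replicates. TPR D replicates had -0.09, -0.76 and -0.22. TPR A values were above all control values, with replicate 3 far above replicates 1 and 2, and TPR D values lay within the control range. The low end of that range was control replicate 2, and without it TPR D replicate 2 (-0.76) lay below the control values. The N/C change, the mean of both TPR shRNAs minus control, was 0.40 (95% interval -0.52 to 1.32, adjusted p = 0.999, limma) and 0.13 without control replicate 2. Taken alone, TPR A gave 0.76 (-0.31 to 1.82) and TPR D 0.05 (-1.02 to 1.11), or 0.48 and -0.23 without control replicate 2.

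None of the other 8 genes passed against control. In nuclear RNA 1 of the 9 genes passed the test with TPR A, HMOX1, against 0.903% of all genes tested, and 0 of 9 with TPR D, against 0.479%. In cytoplasmic/ER RNA the counts were 1 of 9 with TPR A, again HMOX1, against 0.623%, and 0 of 9 with TPR D, against 0.575%. At an unadjusted p under 0.05 in limma, HMOX1 was the sole member with TPR D in either fraction and with TPR A in cytoplasmic/ER RNA, and NFE2L2 and TXNRD1, both lower, joined it with TPR A in nuclear RNA. Of all 14611 genes, 1334 (nuclear) and 1376 (cytoplasmic/ER) had such a p with TPR D, and 1781 and 1695 with TPR A. Without control replicate 2 SLC7A11, higher, had such a p with both shRNAs in both fractions, and GCLM, higher, with TPR A in cytoplasmic/ER RNA. HMOX1 then had it with TPR A only, and NFE2L2 and TXNRD1 did not have it. Over all genes the counts were then 1427 (TPR A) and 1246 (TPR D) in nuclear RNA, and 1489 and 1245 in cytoplasmic/ER RNA. Between the shRNAs HMOX1 was the sole member called in nuclear RNA (1 of 9, against 0.315%) and in cytoplasmic/ER RNA (1 of 9, against 0.637%). Nuclear and cytoplasmic/ER libraries were prepared alongside the total libraries. The calls of HMOX1 with TPR A in them are therefore not independent of its selection on total RNA. In total RNA, where HMOX1 was selected with TPR A, its place past the threshold (1 of 9, beside 0.821% of all genes) was fixed by that choice. With TPR D limma called 0 of 9 there, beside 0.753% of all genes, and 1 of the 9, like 2137 of all genes, had an unadjusted p under 0.05. All 9 genes passed the minimum mean of 1 FPKM that chose the 14611 genes tested.

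Counted by ranges, 2 of the 9 genes had TPR A libraries wholly outside the control range in nuclear RNA, HMOX1 above and NFE2L2 below, against 17.1% of all genes. With TPR D these were HMOX1 above and TXNRD1 below, against 15.4%. In cytoplasmic/ER RNA HMOX1 alone was outside the range, with TPR A (16% of all genes) and with TPR D (14%). In total RNA HMOX1 lay above and TXNRD1 below with TPR A (18.7%), and TXNRD1 below with TPR D (16.7%). Apart from HMOX1, 0 or 1 gene lay outside the control range in each comparison.

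**Figure D2:**
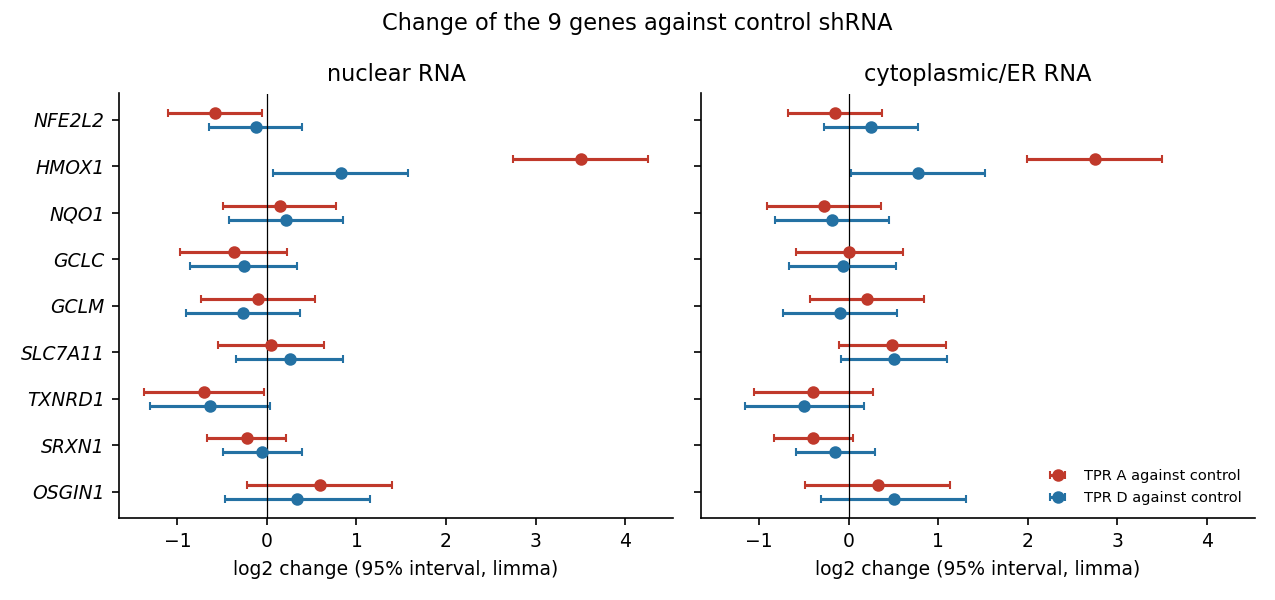
Log2 change of each of the 9 genes against control shRNA in nuclear (left) and cytoplasmic/ER RNA (right), with 95% intervals from limma, for TPR A and TPR D (3 libraries a group). HMOX1 with TPR A stands at 3.50 and 2.75, and the other 8 genes lie between -0.70 and 0.59.

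NFE2L2 (ENSG00000116044, chr2:178083395-178257484, minus strand, GRCh37), which encodes NRF2 itself, was not called in any comparison with control. Nuclear levels were 47.5, 64.1 and 42.8 FPKM in control replicates, 37.4, 27.6 and 37.2 with TPR A and 48.2, 41.8 and 48.9 with TPR D. The TPR A libraries were below the control libraries, and the TPR D libraries overlapped them. The log2 change with TPR A was -0.58 ± 0.25 (adjusted p = 0.341, limma), or -0.41 without control replicate 2, and with TPR D it was -0.13, or 0.05 without it. In cytoplasmic/ER RNA the log2 values were -0.15 (TPR A) and 0.25 (TPR D), neither past the threshold. NRF2 is controlled mainly as a protein, which was not measured. The annotated span of NFE2L2 holds 10 overlapping genes on either strand, and whether the quantification used strand was not given in the sources used here.

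TXNRD1 (ENSG00000198431, chr12:104609557-104744085, plus strand, GRCh37) encodes thioredoxin reductase 1, which keeps thioredoxin reduced with electrons from NADPH, and it was the most abundant of the 9 genes in control cells. Nuclear levels were 236, 459 and 274 FPKM with control shRNA, 161, 162 and 263 with TPR A and 222, 167 and 211 with TPR D. TPR D libraries lay below all control libraries, and 1 TPR A library reached into the control range. Its log2 change in nuclear RNA was -0.70 ± 0.32 with TPR A (adjusted p = 0.38, limma) and -0.63 ± 0.32 with TPR D (adjusted p = 0.578, limma). Without control replicate 2 these were -0.41 and -0.34, and the library labelled control nuclear replicate 2 held the highest of its 27 values. In total RNA it was 296, 439 and 280 FPKM with control shRNA, 176, 179 and 270 with TPR A and 119, 185 and 199 with TPR D, with both TPR groups below the control range. In cytoplasmic/ER RNA the change of TXNRD1 was -0.39 and -0.49. Within replicate 1 it was 0.13 and 0.34 there, and within replicates 2 and 3 it was -0.65 and -0.91. The latter means came mostly from replicate 2, with -1.23 and -1.55. Replicate 3 had -0.07 and -0.27, so the difference between the sets rested largely on 1 replicate.

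SRXN1 (ENSG00000271303, chr20:627259-633844, minus strand, GRCh37) encodes sulfiredoxin, which repairs overoxidised peroxiredoxins. Its nuclear levels ranged from 15.2 to 28.5 FPKM and its cytoplasmic/ER levels from 20.9 to 45.9 FPKM over the 9 libraries of each fraction. The log2 change was -0.22 (nuclear) and -0.39 (cytoplasmic/ER) with TPR A, the latter with the lowest adjusted p of the 8 genes in that comparison (0.514, limma), and -0.05 and -0.15 with TPR D. Without control replicate 2 the nuclear values were -0.015 (TPR A) and 0.16 (TPR D), and the cytoplasmic/ER values -0.21 and 0.035. NQO1, a quinone reductase often used as a readout of NRF2 activity, ranged from 92.9 to 135 FPKM in the nucleus and from 91.9 to 168 FPKM in the cytoplasmic/ER fraction. Its changes were 0.14 and -0.27 with TPR A and 0.21 and -0.18 with TPR D, each with an interval that spans 0, and without control replicate 2 the nuclear changes were 0.077 and 0.15.

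None of the glutathione genes passed the test against control. GCLC and GCLM encode the catalytic and the modifier subunit of glutamate-cysteine ligase, which makes the first bond of glutathione. GCLC had a log2 change of -0.37 in nuclear and 0.01 in cytoplasmic/ER RNA with TPR A, and -0.26 and -0.07 with TPR D. Its nuclear changes were -0.036 and 0.077 without control replicate 2. GCLM had -0.10 and 0.21 with TPR A, and -0.27 and -0.09 with TPR D. Without control replicate 2 the nuclear changes of GCLM were 0.28 and 0.11, so their direction turned with that replicate. Its cytoplasmic/ER changes were then 0.54 and 0.24. SLC7A11 (ENSG00000151012, chr4:139085251-139163503, minus strand, GRCh37) encodes the transporter that brings in cystine for glutathione. Its log2 change was 0.04 (nuclear) and 0.49 (cytoplasmic/ER) with TPR A, and 0.25 and 0.51 with TPR D, with adjusted p-values of at least 0.563 (limma). Without control replicate 2 the nuclear values were 0.49 and 0.70 (adjusted p = 0.458 and 0.233, limma). The cytoplasmic/ER values were then 0.75 and 0.77 (adjusted p = 0.172 and 0.169, limma). OSGIN1, an oxidative stress induced inhibitor of growth, had nuclear changes of 0.59 ± 0.39 (TPR A) and 0.34 ± 0.39 (TPR D), or 0.39 and 0.14 without control replicate 2, and 0.33 and 0.50 in cytoplasmic/ER RNA. Its libraries varied widely, at 10.7, 18.4 and 23.9 FPKM in TPR A nuclei against 14.2, 8.32 and 11.7 FPKM in control nuclei, and the groups overlapped. OSGIN1 shares its span with MLYCD on the same strand, so reads of shared exons could be split between them.

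**Figure D3:**
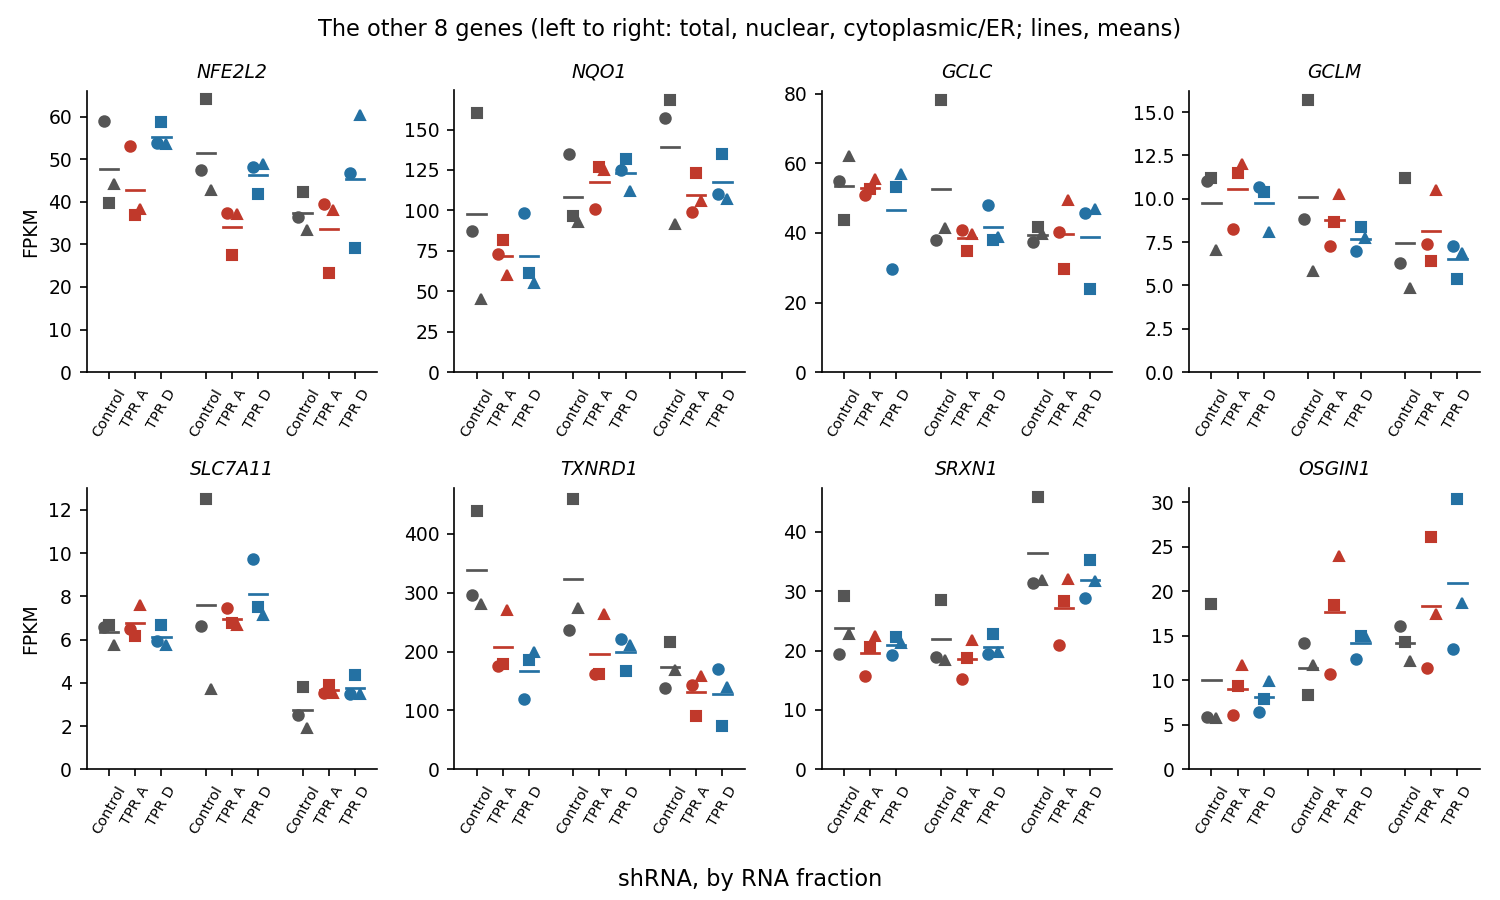
FPKM (linear axes from 0) of the 8 genes other than HMOX1 in each library, by shRNA, with total, nuclear and cytoplasmic/ER groups from left to right, a symbol for each replicate (circle 1, square 2, triangle 3) and a line at each mean. The library labelled control nuclear replicate 2 holds the highest value of NFE2L2, GCLC, GCLM, SLC7A11 and TXNRD1, at 64.1, 78.2, 15.7, 12.5 and 459 FPKM.

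The library labelled control nuclear replicate 2 had the highest of 27 values for 5 of the 9 genes, NFE2L2, GCLC, GCLM, SLC7A11 and TXNRD1. Its cytoplasmic/ER partner, which looked like its labelled fraction, had the highest value of NQO1 and SRXN1, at 168 and 45.9 FPKM. HMOX1, in contrast, was lowest of all nuclear libraries in that same library, at 28.9 FPKM. The part of a label exchange in these values was not tested.

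The order of the levels was compared in cytoplasmic/ER RNA, where each control library looked like its labelled fraction. In control cells the mean FPKM was 174 ± 39.5 (SD, n = 3) for TXNRD1, 139 ± 41.3 for NQO1, 58.6 ± 1.27 for HMOX1, 39.5 ± 2.16 for GCLC, 37.4 ± 4.56 for NFE2L2 and 36.4 ± 8.26 for SRXN1. OSGIN1 followed with 14.2 ± 1.98, GCLM with 7.44 ± 3.29 and SLC7A11 with 2.75 ± 0.967. The ranges of TXNRD1 and NQO1 overlapped, as did those of GCLC, NFE2L2 and SRXN1, and the other neighbours in this order were separate. With TPR A HMOX1 moved to the top, at 406 ± 147 FPKM, and its lowest library (240 FPKM) was above the highest library of TXNRD1 (159 FPKM). With TPR D it was 99.9 ± 18.2 FPKM, behind TXNRD1 (127 ± 49.6) and NQO1 (117 ± 15.3), with ranges that overlapped those of both.

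In control cells 3 of the 9 genes differed between nuclear and cytoplasmic/ER RNA, a share no higher than the 39.4% of all genes. SLC7A11 mRNA was more nuclear, with N/C values of 1.40, 1.74 and 0.94 in replicates 1, 2 and 3 and a mean of 1.36 ± 0.29 (SE, adjusted p = 0.000842, limma). TXNRD1 was more nuclear by 0.89 ± 0.32 (adjusted p = 0.0322, limma), and SRXN1 was more cytoplasmic, with N/C values of -0.69, -0.64 and -0.76 and a mean of -0.70 ± 0.21 (adjusted p = 0.0123, limma). Without control replicate 2 SLC7A11 (1.17, adjusted p = 0.00134) and SRXN1 (-0.73, adjusted p = 0.0156) were called, and TXNRD1 (0.77, adjusted p = 0.116) was not. SLC7A11 was the one gene of the 9 called when control replicate 1 or 3 was left out. Without control replicate 1, 3689 of all 14611 genes were called. HMOX1 had a mean of -0.40, with an adjusted p of 0.398 in limma.

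SLC7A11 lay on the nuclear side in TPR-depleted cells as well. With TPR A 1 of 9 was called, against 28.4% of all genes, SLC7A11 at 0.91 ± 0.29 (adjusted p = 0.0206, limma). With TPR D it was 2 of 9, against 31.7%, SLC7A11 at 1.10 ± 0.29 and SRXN1 at -0.60 ± 0.21. Neither share was above that of all genes, so these calls do not set the 9 genes apart. SRXN1 was at -0.53 with TPR A (adjusted p = 0.0653, limma), with values of -0.45, -0.58 and -0.56 in its replicates. It passed there with the replicate number as a replicate block (adjusted p = 0.012) and without control replicate 2 (adjusted p = 0.0262). The block raised the calls over all 14611 genes in that comparison from 4148 to 5149. For the N/C change of both shRNAs 0 of 9 genes and 0% of all genes passed in limma, and 0 of the 9 had an unadjusted p under 0.05, against 251 of all genes. The fit did not pair the fractions of a culture, so a lack of calls does not show that N/C values stayed the same. The N/C changes of the 8 genes ranged from -0.40 for NFE2L2 to 0.41 for NQO1. NQO1 mRNA had N/C values of -0.19, -0.76 and 0.05 in control and 0.03 to 0.26 in TPR A replicates, and its N/C change was 0.18 without control replicate 2.

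**Figure D4:**
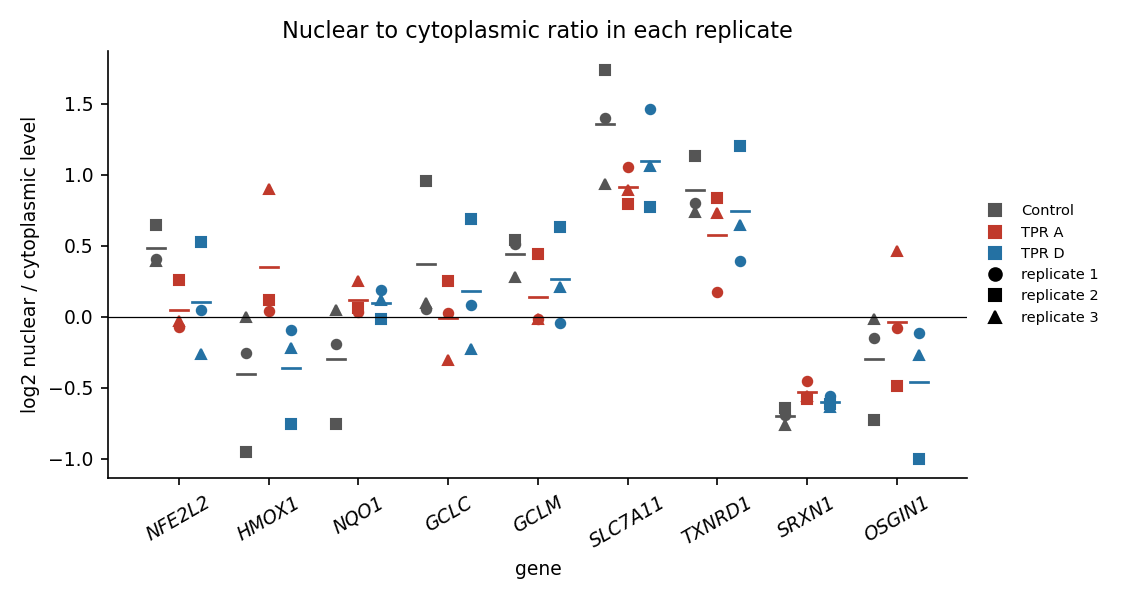
N/C values (log2 of nuclear over cytoplasmic/ER FPKM, rescaled) of the 9 genes in each replicate, by shRNA, with a line at the mean of 3. SLC7A11 lies between 0.77 and 1.74 and SRXN1 between -0.76 and -0.45 in all replicates, while HMOX1 runs from -0.95 to 0.90.

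A wider list of 67 genes of the NRF2 pathway, 8 of them among the 9 genes, was read in the same way. Of these 65 were matched and 61 tested. In nuclear RNA 1 gene of the list rose with TPR A and 0 fell, and in cytoplasmic/ER RNA again 1 rose and 0 fell. The gene was HMOX1 in both, where limma called 0.903% and 0.623% of all genes. With TPR D 0 genes were called in either fraction by limma, with 4 at an unadjusted p under 0.05 in each, 3 of them higher in the nucleus and 1 of them higher in the cytoplasmic/ER fraction. These 4 of 61 stand beside 1334 and 1376 of all 14611 genes, and the 0 calls beside 0.479% and 0.575%. The median log2 change of the list was 0.07 (TPR A) and 0.02 (TPR D) in nuclear RNA, where that of all genes was -0.01 for both, and -0.09 for both shRNAs in cytoplasmic/ER RNA, where that of all genes was -0.02 for both. Above 0 were 37 and 35 of 61 genes in nuclear RNA and 25 and 22 of 61 in cytoplasmic/ER RNA. When control replicate 2 was left out these were 31 and 31 (medians 0.026 and 0.008) and 28 and 32 (medians -0.053 and 0.02). For the N/C change of both shRNAs 0 genes of the list were called, and 0 had an unadjusted p under 0.05. With TPR A alone 1 of 61 had such a p in limma, SLC40A1 at -2.403, beside 215 of all 14611 genes.

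**Figure D5:**
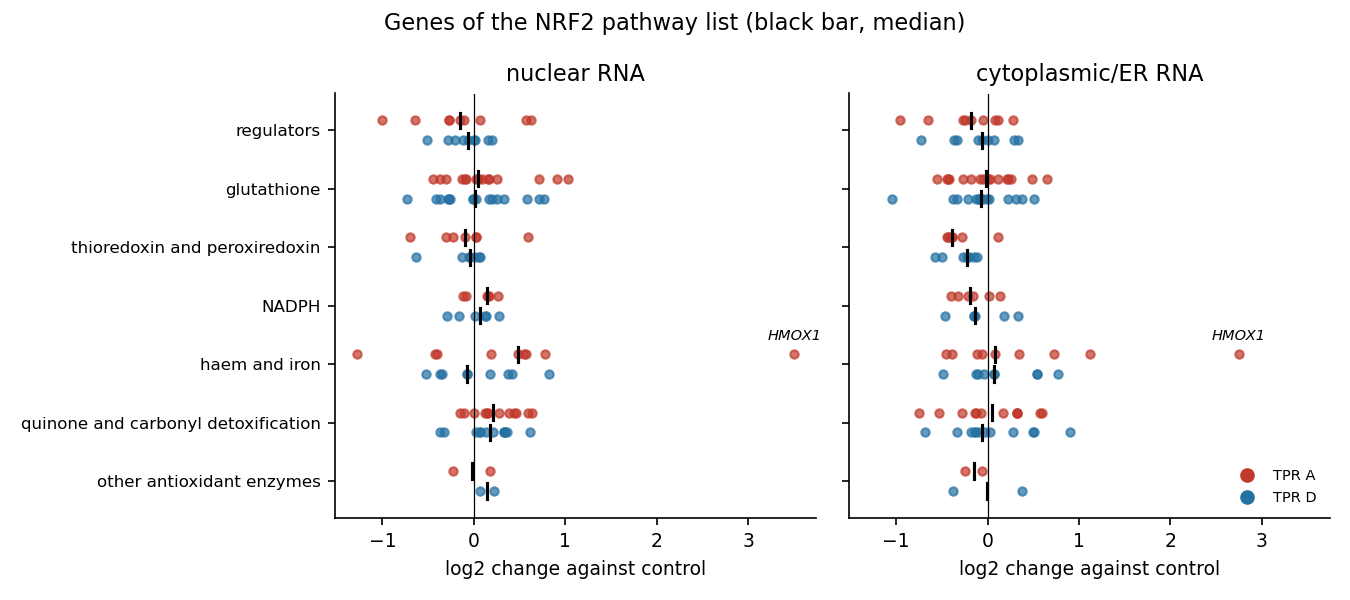
Log2 change against control of the genes tested from the pathway list, by group (rows), for TPR A and TPR D in nuclear (left) and cytoplasmic/ER RNA (right), with black bars at the medians. HMOX1 with TPR A (3.50 and 2.75) stands apart, and all other genes lie between -1.28 and 1.13. These ends are the nuclear and the cytoplasmic/ER change of SLC40A1 with TPR A.

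Among the regulators, KEAP1, the sensor that binds NRF2, had log2 changes in nuclear RNA of 0.07 (TPR A) and 0.15 (TPR D). BACH1, the repressor of HMOX1, had nuclear changes of -0.65 ± 0.69 (adjusted p = 0.75, limma) and -0.28 and varied widely between libraries, at 64.7 ± 31.2 FPKM (SD, n = 3) in control and 47.9 ± 41.9 FPKM in TPR A nuclei. SQSTM1, which sequesters KEAP1 in autophagy, had 0.57 ± 0.32 (adjusted p = 0.506, limma) and -0.20. Without control replicate 2 the nuclear values were -0.078 and 0.008 for KEAP1, -0.34 and 0.032 for BACH1, and 0.18 and -0.59 for SQSTM1. None of the 9 regulators passed in a nuclear or cytoplasmic/ER comparison with control, and with limma 1 of them, MAFK, had an unadjusted p under 0.05 with TPR A in each fraction and 0 with TPR D.

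MAFK, a small MAF protein that pairs with NRF2 or with BACH1, is described because its values were seen to be low with TPR A. It was not called in nuclear or cytoplasmic/ER RNA. It was 49.8, 61.7 and 78.8 FPKM in control nuclei, 26.2, 32.0 and 34.9 in TPR A nuclei and 69.0, 46.4 and 65.7 in TPR D nuclei. TPR A libraries were below all others, and TPR D libraries overlapped the control libraries. In cytoplasmic/ER RNA MAFK was 42.3, 44.6 and 58.3 FPKM with control shRNA, 24.5, 23.0 and 25.0 with TPR A and 56.6, 34.7 and 47.4 with TPR D, with the same order. Its log2 change with TPR A was -1.01 ± 0.29 (adjusted p = 0.103, limma) in the nucleus and -0.95 ± 0.29 (adjusted p = 0.14, limma) in the cytoplasmic/ER fraction. With TPR D it was -0.06 in both. With control replicate 2 left out the nuclear TPR A change was again -1.01 (adjusted p = 0.226, limma). In total RNA MAFK was 45.3, 107 and 80 FPKM with control shRNA, 23.3, 26.7 and 43.7 with TPR A and 40, 48 and 68.7 with TPR D. There limma called it lower with TPR A (log2 change -1.215), beside 0.821% of all genes called. The highest of these values, 107 FPKM, is that of control replicate 2.

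Among the genes of haem and iron, HMOX2, the haem oxygenase that is made constitutively, was 90.2, 56.4 and 87.3 FPKM in control nuclei and 104, 151 and 140 FPKM in TPR A nuclei. These did not overlap, the lowest control value being that of the library labelled replicate 2, and the log2 change of HMOX2 was 0.77 ± 0.31 (adjusted p = 0.27, limma), with 0.17 for TPR D. Those values were 0.56 and -0.038 without control replicate 2. FTH1 and FTL encode the heavy and the light chain of ferritin, which stores iron of the kind that haem oxygenase frees. FTH1 had changes of 0.57 (nuclear) and 0.73 (cytoplasmic/ER) with TPR A and -0.08 and 0.55 with TPR D, and FTL had -0.42 and -0.39 with TPR A and -0.52 and -0.13 with TPR D. None of these passed the test, the lowest adjusted p for FTH1 being 0.434. Without control replicate 2 the nuclear changes were 0.96 (TPR A, adjusted p = 0.103, limma) and 0.31 for FTH1 and 0.096 and -0.005 for FTL. For the 9 genes of haem and iron the median nuclear change was 0.48 (TPR A) and -0.08 (TPR D), and 6 and 4 of the 9 lay above 0. In cytoplasmic/ER RNA the medians were 0.08 and 0.069, with 5 and 5 of 9 above 0, and without control replicate 2 the nuclear medians were 0.28 and 0.029.

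In the remaining groups of the list no gene was called in nuclear or cytoplasmic/ER RNA against control. The 16 glutathione genes had median changes of 0.04 (TPR A) and 0.01 (TPR D) in nuclear RNA and of -0.02 and -0.07 in cytoplasmic/ER RNA. The 7 thioredoxin and peroxiredoxin genes had nuclear medians of -0.09 and -0.04 and cytoplasmic/ER medians of -0.39 and -0.22, with 1 and 0 of 7 above 0 in the latter fraction. For the 6 genes that make NADPH the nuclear medians were 0.15 and 0.07 and the cytoplasmic/ER medians -0.19 and -0.14. For the 12 tested genes of quinone and carbonyl detoxification they were 0.21 and 0.17 in the nucleus and 0.05 and -0.058 in the cytoplasmic/ER fraction. Leaving out control replicate 2 gave nuclear medians of -0.021 and 0.081 (glutathione), -0.10 and -0.08 (thioredoxin and peroxiredoxin), -0.06 and -0.16 (NADPH) and 0.11 and 0.13 (quinone and carbonyl detoxification). The superoxide dismutase SOD1 and catalase, the 2 other antioxidant enzymes tested, lay between -0.38 and 0.38 in these comparisons.

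Genes with the pattern most like HMOX1 over the 27 libraries were found by the correlation of log2 values after the mean of each fraction was subtracted. Libraries of the same culture are not independent, and the pattern of HMOX1 is dominated by the gap between TPR A and the rest. The closest were SLC6A17, a neuronal amino acid transporter (Pearson r = 0.94, Spearman rho = 0.829), BIN1, a membrane-bending protein (0.927 and 0.91), KCNA6, a potassium channel (0.916 and 0.861), a gene listed only as ENSG00000104725 (0.914 and 0.876) and SYTL1, a synaptotagmin-like protein of vesicle transport (0.906 and 0.795). None of these is on the pathway list. SLC6A17 and KCNA6 were low, with means of 1.13 and 1.31 FPKM over all libraries. Without control replicate 2 the first 5 were SLC6A17, LGALS7B, ODAPH, ENSG00000104725 and BIN1.

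SYTL1 had the widest change of the 5, from 1.07 ± 1.09 FPKM (SD, n = 3) in control nuclei to 14.2 ± 6.84 in TPR A nuclei and 1.91 ± 1.60 in TPR D nuclei. BIN1 was 27.7 ± 2.11, 46.9 ± 7.19 and 32.1 ± 2.88 FPKM in the same groups. The 8 other members of the pathway had lower correlations with HMOX1. OSGIN1 was the closest with r = 0.477 (rho = 0.572) and ranked 1180th among the genes tested. NQO1 had r = -0.009 (rho = 0.004), and NFE2L2 was the most opposed with r = -0.593 (rho = -0.491). GCLM moved from r = 0.133 (rank 4824) to r = 0.525 (rank 1014) when control replicate 2 was left out, and OSGIN1 then ranked 1087th.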

How the data were processed

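Poly(A)+ RNA of 27 libraries was quantified by the authors with Salmon on Gencode protein-coding and long non-coding transcripts (hg19) and summed to genes with tximport. The deposited values are FPKM, normalised to transcript length and library size by the authors. Read counts were not used here, so no count model was run. Such values are scaled to the library, so a few abundant transcripts can shift all others. Their sum was not fixed, at 746466 (TPR D nuclear replicate 3) to 2063355 (control cytoplasmic/ER replicate 2). The values were divided by median-of-ratios factors (0.954 to 1.06). Then 0.1 was added and the log2 taken, which understates changes of low genes. A mean above 1 FPKM was required and the 13 genes of the mitochondrial genome were dropped, which kept 14611 genes. Symbols came from GENCODE 44 on GRCh37 (32776 IDs matched, 1688 did not, among them those of SOD2, TXNIP and the marker PECAM1).

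All 27 libraries in 9 groups were fitted in R 4.3.3 with the package limma 3.58.1 (functions lmFit and contrasts.fit, then eBayes with trend), with Benjamini-Hochberg adjustment over the 14611 genes and a threshold of 0.05. The p-values measure the spread between replicates, which the labels do not tie to separate cultures. On simulated data for the nuclear comparison of TPR A with control (14611 genes), 88 of 100 genes changed by a log2 of 2 and 99 of 100 changed by 3 were recovered, with 8 false calls. The simulated noise was independent for each library, unlike fractions of 1 culture. Smaller changes were not simulated, so the recovery of changes as small as those of the genes not called is not known. Tables and figures used Python 3.11.15, numpy 2.4.6, pandas 2.3.3, scipy 1.17.1 and matplotlib 3.10.9. Read depth was inferred from the spacing of low values of 5927 genes with 1 transcript. With 250 nt taken off each length, 87.9% of the 28480 values worth 1 to 5 reads were whole to within 0.1 read. Per FPKM and kb this gave 32.1 to 48.5 reads (median 40) in cytoplasmic/ER, 45.6 to 61.2 (median 50) in nuclear and 41.2 to 88.4 (median 61.5) in total libraries.

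The members, the pathway list and the tests were chosen with earlier results of these data known. Named were the 9 genes, TPR, MALAT1, NEAT1 and the mitochondrial share, 6 genes of the list (KEAP1, BACH1, SQSTM1, HMOX2, FTH1, FTL) plus others called in nuclear, cytoplasmic/ER or N/C comparisons, and the 5 genes with the highest r to HMOX1. MAFK, SOD1 and SLC40A1 were named in addition, after their values were seen.

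Deviations from the group means of libraries with the same replicate number had correlations over 0.1 in every pair for control and TPR A in total RNA (0.137 to 0.324) and for TPR A and TPR D in nuclear (0.131 to 0.266) and cytoplasmic/ER RNA (0.398 to 0.597), not in the other comparisons. The alternatives were FPKM without the factors, added values of 1 and 0.01, no minimum, a minimum mean of 5 FPKM, no trend, the replicate number as a block, control and 1 shRNA alone, and each replicate of each shRNA left out.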

Additional observations from a re-analysis of the deposited data

Results flagged for a closer look

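Of the 9 genes, HMOX1 was the one whose response differed between the TPR shRNAs. The difference of TPR A minus TPR D on the log2 scale was 2.68 in nuclear RNA and 1.97 in cytoplasmic/ER RNA, each tested as a contrast of its own in limma. It had the same direction in each of the 3 replicates of both fractions, while TPR mRNA was lowered by both shRNAs.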

How the results depend on the processing

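The calls of HMOX1 with TPR A against control in nuclear and cytoplasmic/ER RNA held in all alternatives, and its changes with TPR D missed the threshold in all. Over 80 results and 17 settings, 1042 of 1078 values were counted as unchanged. For log2 changes outside total RNA this meant the same direction and side of the threshold. For total RNA it meant a shift below the larger SD of the groups compared, and for counts of called genes equal or similar numbers. Outside total RNA a change of sign arose 24 times in 15 results, none past the threshold, and the cause was not tested. Signs in total RNA are outside that count. Without control replicate 2 they turned for NQO1 with both shRNAs, OSGIN1 and SRXN1 with TPR D, and GCLC with TPR A. GCLC in cytoplasmic/ER RNA with TPR A was -0.022 with FPKM as deposited and -0.022 with no minimum.

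Leaving out each replicate gave lowest and highest log2 values as follows. HMOX1 in cytoplasmic/ER RNA, TPR A against TPR D, was 1.77 to 2.30. NFE2L2 was -0.25 to 0.05 in the nucleus with TPR D and -0.30 to 0.10 in the cytoplasmic/ER fraction with TPR A. GCLC was -0.46 to 0.077 (nuclear, TPR D), -0.15 to 0.21 (cytoplasmic/ER, TPR A) and -0.23 to 0.25 (cytoplasmic/ER, TPR D), and its N/C change was -0.44 to 0.009. GCLM was -0.43 to 0.28 with TPR A and -0.60 to 0.11 with TPR D in the nucleus, and -0.039 to 0.54 and -0.34 to 0.24 in the cytoplasmic/ER fraction. SLC7A11 was -0.38 to 0.49 with TPR A and -0.17 to 0.70 with TPR D in the nucleus. SRXN1 with TPR D was -0.16 to 0.16 in the nucleus and -0.25 to 0.035 in the cytoplasmic/ER fraction, and the N/C change of OSGIN1 was -0.16 to 0.19. Of the 9 genes, 1 to 3 were called between nuclear and cytoplasmic/ER RNA in control cells. Over all 14611 genes there were 5750 such calls with all replicates and 3689 without control replicate 1.

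With the replicate number as a replicate block, HMOX1 with TPR A kept its nuclear log2 change of 3.50 (adjusted p = 6.45e-06, limma), and the call of SRXN1 between the fractions of TPR A cells was the one call of the 9 genes that changed. Calls over all genes went from 132 to 375 (TPR A) and from 70 to 229 (TPR D) in the nucleus, from 91 to 328 and from 84 to 261 in the cytoplasmic/ER fraction, and from 46 to 206 and from 93 to 196 between the shRNAs. With no minimum (30252 genes) the cytoplasmic/ER counts were 167 and 153, and 85 genes differed between the shRNAs in the nucleus. Depth limits SLC7A11 most, at about 77 reads per kb in its lowest library.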
